A study of Mus musculus with 7 samples.

Results

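Voltage-gated calcium channels are described here through 10 of their subunit genes in mouse pancreatic islets. These were the pore-forming (α1) subunits Cacna1a, Cacna1b, Cacna1c, Cacna1d, Cacna1e and Cacna1h, the β subunits Cacnb2 and Cacnb3, and the α2δ subunits Cacna2d1 and Cacna2d2. They were chosen by gene name, with earlier results of these data known, and 1 of them, Cacna1c, was named by the study from these samples. All 10 were found among the 21899 genes listed in the files.

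Islet RNA-seq was carried out on F2 male mice of a wild-type C57BL/6J line. F0 dams received dihydrotestosterone, an androgen that is not converted to oestrogen, in an oil carrier late in pregnancy (AE, androgen exposure), or the carrier alone (control). Their F1 sons were mated with unrelated wild-type females, so the F2 males carried no engineered allele and were not themselves exposed in the womb, though the fetal germ cells of their F1 fathers were. The age of the F2 males used for RNA-seq was not given in the sources used here. The labels listed 3 control-F2 and 4 AE-F2 samples, of which 1 library per group, control-F2 replicate 1 and AE-F2 replicate 4, was analysed. The other 5 were not analysed here. Every difference given below is therefore a difference between 2 libraries, has no replicate check and carries no P value.

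In a β-cell, glucose metabolism closes ATP-sensitive potassium channels, the membrane depolarises, and voltage-gated calcium channels open. The calcium that enters triggers fusion of insulin granules with the plasma membrane. The α1 subunit forms the pore and sets the type of current (L, P/Q, N, R or T), the β subunit binds its intracellular side and aids delivery to the membrane, and the α2δ subunit is held at the outer face and raises the number of channels there. L-type channels, built on Cacna1c or Cacna1d, carry a large part of the calcium current that drives insulin release. Whole islets also contain α-, δ- and PP-cells, vessels and nerve endings, which use many of these subunits too.

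The L-type genes are transcribed from several start sites, and the sequences just before them differ widely in CpG dinucleotides, the sites of DNA methylation that the study measured in sperm and islets. The 250 bases upstream of each RefSeq start are shown for the L-type pair (build GRCm38.p6, minus strand, 5′ to 3′, each CG in capitals), since Cacna1c is the member whose methylation was of interest to the study. Windows of 8 of the 10 members were matched in the RefSeq table used here (13 windows).

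Cacna1c start 1, chr6:119196410-119196659: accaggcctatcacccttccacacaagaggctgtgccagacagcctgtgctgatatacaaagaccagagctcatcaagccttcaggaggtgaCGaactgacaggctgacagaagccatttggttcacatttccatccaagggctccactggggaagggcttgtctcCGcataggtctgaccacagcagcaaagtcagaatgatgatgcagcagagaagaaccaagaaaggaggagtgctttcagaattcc

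Cacna1c start 2, chr6:119108496-119108745: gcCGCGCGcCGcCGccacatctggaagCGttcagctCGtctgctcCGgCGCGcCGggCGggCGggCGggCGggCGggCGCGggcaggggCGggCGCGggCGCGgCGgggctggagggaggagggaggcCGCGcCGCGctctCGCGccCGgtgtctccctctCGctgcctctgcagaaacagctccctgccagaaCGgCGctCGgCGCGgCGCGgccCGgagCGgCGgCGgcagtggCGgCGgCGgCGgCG

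Cacna1c start 3, chr6:118757975-118758224: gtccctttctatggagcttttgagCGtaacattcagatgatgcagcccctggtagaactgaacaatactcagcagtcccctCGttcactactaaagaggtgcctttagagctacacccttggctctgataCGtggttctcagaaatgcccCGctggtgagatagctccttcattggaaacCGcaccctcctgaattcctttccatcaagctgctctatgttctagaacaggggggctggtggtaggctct

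Cacna1d start 1, chr14:30491157-30491406: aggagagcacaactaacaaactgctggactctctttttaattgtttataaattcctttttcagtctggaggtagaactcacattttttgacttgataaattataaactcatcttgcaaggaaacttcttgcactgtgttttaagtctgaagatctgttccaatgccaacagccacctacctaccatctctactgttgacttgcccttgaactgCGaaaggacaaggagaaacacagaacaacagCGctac

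Cacna1d start 2, chr14:30353487-30353736: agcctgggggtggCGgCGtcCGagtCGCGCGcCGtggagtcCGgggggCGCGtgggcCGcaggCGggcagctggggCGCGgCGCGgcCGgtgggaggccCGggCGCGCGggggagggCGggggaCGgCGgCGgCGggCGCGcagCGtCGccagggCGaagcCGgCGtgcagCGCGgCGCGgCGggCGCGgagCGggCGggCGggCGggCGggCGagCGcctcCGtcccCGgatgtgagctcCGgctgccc

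Start 2 of Cacna1c had 48 CG and 82.8% G+C in its 250 bases, against 2 CG at start 1 and 5 CG at start 3. Of 32851 RefSeq promoter windows of the same length, 0.186% held at least 48 CG, and the median held 6. Start 2 of Cacna1d was alike, with 50 CG and 86.4% G+C (0.0944% of windows held as many), and its start 1 had 2 CG. Among the other members, Cacna1b (29 CG), Cacna2d1 (36 CG) and Cacna2d2 (34 CG) had CG-rich windows, Cacna1e had 6, and Cacnb2 (30 and 3) and Cacnb3 (2 and 23) each had a rich and a poor window. Counts per gene do not separate transcripts by start site, and no methylation data were analysed here. The windows were not chosen to hold the Cacna1c region in which the study assayed methylation. By the coordinates that the study listed, with no build beside them, that region lies outside every Cacna1c window shown.

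The libraries held 16285888 (control-F2) and 21278513 (AE-F2) estimated counts. Levels are given as CPM, the usual unit of counts relative to the library total, after scaling by trimmed mean of M-values (TMM), which gave factors of 1.001 for control-F2 and 0.999 for AE-F2, and differences as a log2 ratio (AE-F2 to control-F2) with a 95% interval for counting error only. A gene was called lower or higher where that interval excluded equality. In bulk tissue, fewer cells of a type and less RNA per cell cannot be told apart.

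Islet identity was clear in both libraries. The insulin gene Ins2 was at 128295 CPM in control-F2 and 123879 CPM in AE-F2, and Ins1 at 48709 and 51033 CPM. The 7 α-cell markers summed to 17960 and 24120 CPM, 1.34 times as high in AE-F2 (3 called higher, none lower), led by glucagon (Gcg, 16025 and 22009 CPM). Of 9 β-cell markers, Ins1 and Iapp were called higher and 7 lower. Without Ins1, Ins2 and Iapp the other 6 were all called lower, from -0.28 to -0.09 on the log2 scale, and their sum was 3762 and 3325 CPM. The 6 B cell markers were all called higher in AE-F2, with sums of 4.35 and 358 CPM (0.674 and 18.9 CPM without Ighm and Igkc), and 4 of them were at 3 counts or fewer in control-F2. Sums for δ-cells (4 genes, none called, 2991 and 2981 CPM), PP-cells (2 genes, Pyy called higher, 3187 and 3257 CPM) and endothelium (6 genes, Plvap called higher and Kdr lower, 737 and 729 CPM) were near each other. Of 9 acinar markers, 7 were called lower and Amy2a5 higher (2067 and 1955 CPM, or 1590 and 1219 CPM without Amy2a5). Of 9 mural and fibroblast markers, 5 were called higher and Acta2 lower (268 and 318 CPM, with Cnn1 at 1 count in each library), and of 8 neuronal and glial markers 2 were called higher (149 and 165 CPM). All these counts stand beside the 13.4% of all genes called in each direction. With GC and length trends removed, Ins1 was at -0.04 and called lower, Sst, Ppy and Emcn were also called lower, and Mafa, Kdr, Tagln and Rgs5 were not called. The part of the marker differences in the channel results was not tested.

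All 10 members were measured in both libraries and passed a minimum mean of 10 counts, as did 13627 of all genes. Cacna1c, Cacna1a and Cacna1h were called lower in AE-F2, Cacna1e was called higher, and the intervals of the remaining 6 included equality. Among all 13627 genes, 13.4% were called lower and 13.4% higher, so 3 of 10 and 1 of 10 stand on a high background of calls. At a mean of at least 100 counts, which 9 members reached and Cacna1e did not, these shares were 16.1% lower and 12.2% higher. The median log2 ratio of the members was -0.11 (3 above 0, 7 below 0), and that of all genes kept was 0.00 (6818 above, 6809 below) and -0.01 at 100 counts or more. Only Cacna1e differed by 2-fold or more, in the higher direction, as did 3.16% of all genes, and no member was 2-fold lower, against 0.653%. With a pseudocount of 5 Cacna1e was at 0.75 on the log2 scale, under 2-fold.

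**Figure D1:**
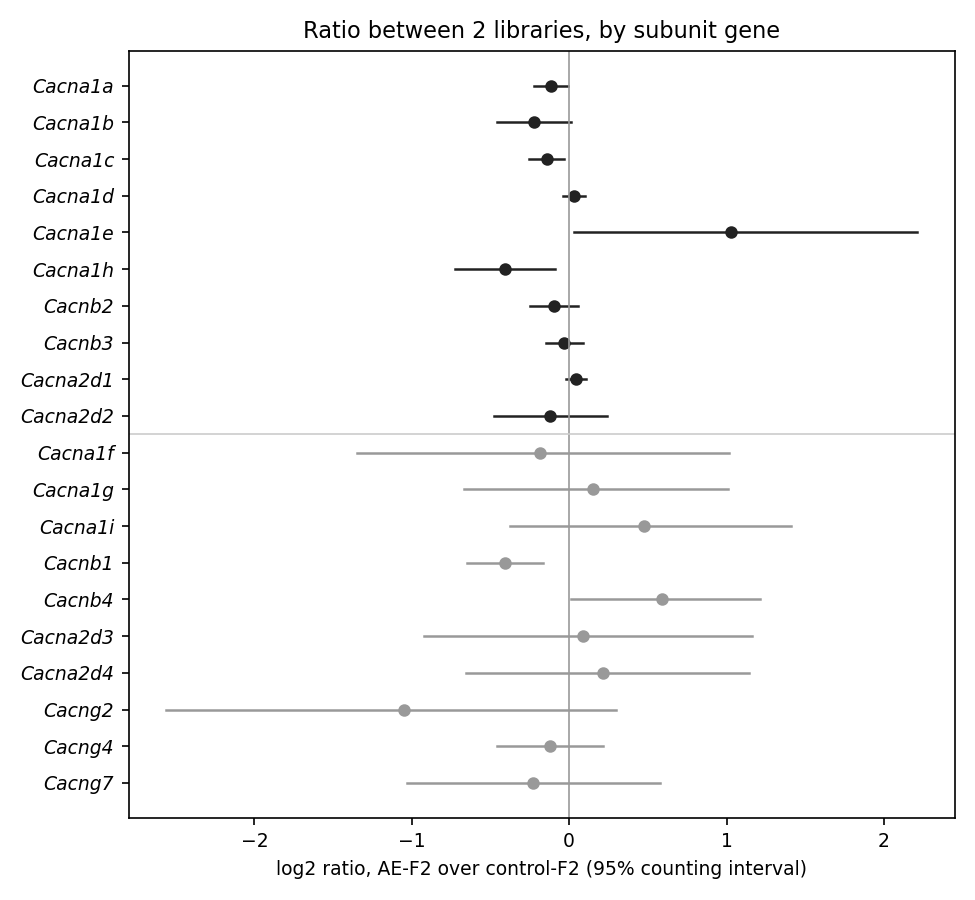
Log2 ratio, AE-F2 to control-F2, for each member (black) and for the 10 other channel subunits that passed the count minimum (grey), with 95% counting intervals as bars and equality as a vertical line. Cacna1a, Cacna1c, Cacna1h and Cacnb1 lie wholly left of the line, Cacna1e and Cacnb4 wholly right, and the intervals of all other genes cross it.

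Cacna1c (ENSMUSG00000051331), the pore of the cardiac and smooth muscle L-type channel and a main L-type pore of mouse β-cells, had 1196 counts in control-F2 and 1411 in AE-F2. These were 73.3 and 66.4 CPM, a difference of -9.47% (95% counting interval -16.2 to -2.13%). The study reported Cacna1c as lower in AE-F2 islets by RNA-seq, and also by qRT-PCR and protein assays. Since the study singled it out on these samples, its direction here is not independent evidence. Cacna1d (ENSMUSG00000015968), the L-type pore that opens at more negative voltages, was the most abundant α1 gene, at 186 and 190 CPM (3033 and 4038 counts). Its difference of 2.17% had an interval from -2.55 to 7.14%. Cacna1c and Cacna1d thus lay on opposite sides of equality, and the interval of Cacna1c alone excluded it. With GC and length trends removed that of Cacna1d alone did (0.10, 0.04 to 0.17), and with trends left in neither did at a 99% level.

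The balance between the L-type pair does not depend on how the libraries were scaled. Cacna1c made up 28.3% (95% exact binomial interval 26.9 to 29.7%) of the Cacna1c and Cacna1d counts in control-F2 and 25.9% (24.7 to 27.1%) in AE-F2. Relative to Cacna1d, Cacna1c was at -0.17 on the log2 scale (-0.31 to -0.04). Per kilobase of exon, which allows for the longer Cacna1c exon set, its share was 19.0% and 17.2%, but with the median protein-coding transcript as the length it was 30.8% and 28.3%.

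Relative to Cacna2d1, the main α2δ gene, Cacna1c was also lower, at -0.19 (-0.32 to -0.06), and its share of their joint counts was 26.4% and 24.0%. Against the other non-L-type pores and auxiliary subunits apart from Cacna1e, the interval of the relative difference included 0: -0.03 (-0.18 to 0.13) for Cacna1a, 0.08 (-0.18 to 0.34) for Cacna1b, 0.26 (-0.07 to 0.60) for Cacna1h, -0.05 (-0.24 to 0.14) for Cacnb2, -0.11 (-0.28 to 0.05) for Cacnb3 and -0.02 (-0.40 to 0.35) for Cacna2d2. Against Cacna1e it was -1.21 (-2.36 to -0.16). With GC and length trends removed, the intervals against Cacna1d (-0.15, -0.28 to -0.02) and Cacna1e (-1.20, -2.35 to -0.15) still excluded 0, and that against Cacna2d1 did not (-0.09, -0.22 to 0.04).

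Cacna1a (ENSMUSG00000034656), the P/Q-type pore, also found at nerve endings, had 1306 counts in control-F2 and 1571 in AE-F2. Its level was 80.1 and 73.9 CPM, a difference of -7.69% (-14.3 to -0.577%). The upper bound lay next to equality, and under upper quartile scaling the interval included it (log2 ratio -0.10, -0.20 to 0.01). Cacna1a and Cacna1c did not differ from each other beyond counting error, with Cacna1c at 47.8% of their joint counts in control-F2 and 47.3% in AE-F2. Relative to Cacna1d, Cacna1a was at -0.15 (-0.27 to -0.02), and with GC and length trends removed at -0.09 (-0.21 to 0.04).

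Cacna1b (ENSMUSG00000004113), the N-type pore that supplies calcium for transmitter release in neurons, was at 17.7 and 15.1 CPM (288 and 321 counts), and its interval of -27.3 to 0.638% just included equality. Cacna1h (ENSMUSG00000024112), a T-type pore that opens near the resting potential, was at 10.5 and 7.95 CPM (172 and 169 counts). Its difference of -24.6% (-39.4 to -6.21%) was the furthest from equality of the 3 members called lower, with the widest interval of the 3. Cacna1e (ENSMUSG00000004110), the R-type pore tied to granule recruitment in β-cells, was scarce, with 11 counts in control-F2 and 30 in AE-F2. This was 0.674 and 1.41 CPM, a ratio of 2.04 with an interval from 1.02 to 4.63. The 6 α1 members together summed to 368 CPM in control-F2 and 355 CPM in AE-F2 (median log2 ratio -0.13).

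Calls of the pore-forming members depended on whether trends of the ratio with base composition and transcript length were left in. Among genes of at least 100 counts, 27.2% of the 728 with a longest transcript of at least 7.926 kb, the shortest of the 6 α1 members (Cacna1a), were called lower, against 15.2% of 9798 shorter ones, a split chosen after the values were seen. Taking out both trends, with GC content and with transcript length, brought Cacna1c to -0.05 (-0.16 to 0.06), Cacna1h to -0.26 (-0.57 to 0.05) and Cacna1a to 0.02 (-0.09 to 0.12), so that no member was called lower, while Cacna1d and Cacna1e were called higher. The share of all genes called was counted only with trends left in. The log2 ratio of Cacna1c was below that of Cacna1d under each of the 10 alternative settings. Scalings between libraries shift both genes alike, so they could not change this order.

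**Figure D2:**
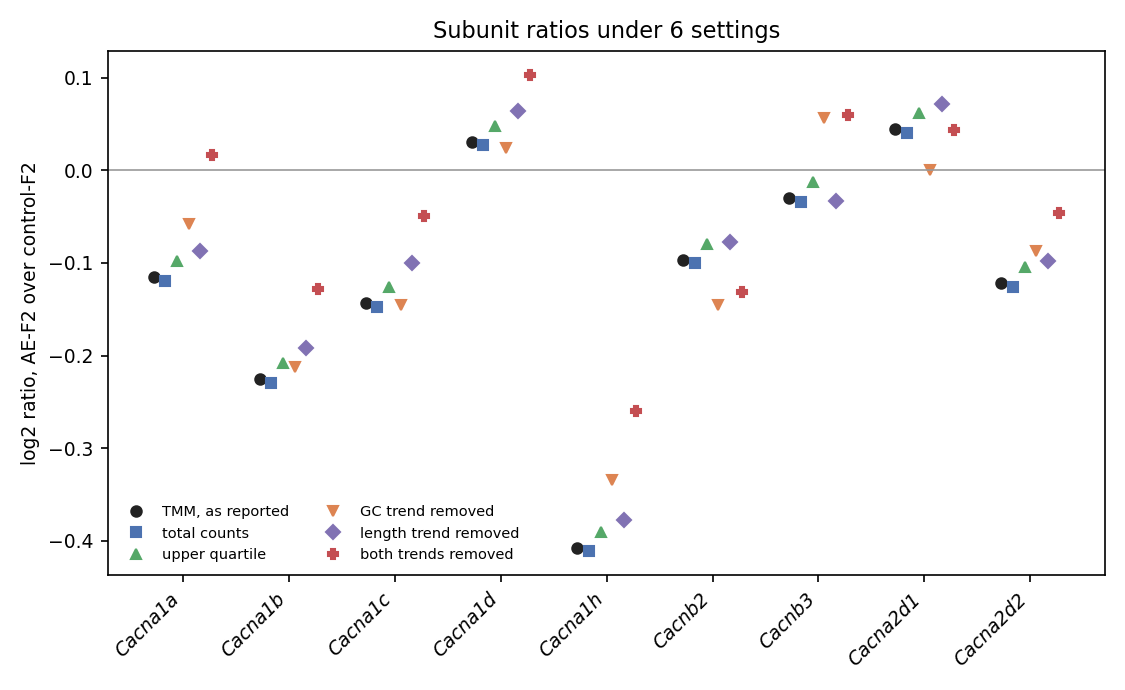
Log2 ratio, AE-F2 to control-F2, for 9 members (Cacna1e, at 1.03, is left out for scale) under 6 settings, namely 3 scalings between libraries (TMM, total counts, upper quartile) and the removal of GC, length or both trends. The 3 scalings lie close together for each gene, and removal of both trends moves Cacna1a from -0.12 to 0.02 and Cacna1c from -0.14 to -0.05.

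Neither β subunit among the members differed beyond counting error. Cacnb3 (ENSMUSG00000003352), a β subunit known to restrain calcium oscillations in β-cells, was at 64.8 CPM in control-F2 and 63.4 CPM in AE-F2 (1056 and 1348 counts). Its interval ran from -9.68 to 6.28%. Cacnb2 (ENSMUSG00000057914), the β subunit of the cardiac L-type channel, was at 40.6 and 38.0 CPM (662 and 807 counts), with an interval from -15.7 to 3.84%. Together they summed to 105 and 101 CPM (median log2 ratio -0.06). Their balance was also within counting error, with Cacnb2 at 38.5% (36.2 to 40.9%) and 37.4% (35.4 to 39.5%) of their joint counts.

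The α2δ subunits, the binding site of gabapentin-type drugs, summed to 212 and 217 CPM (median log2 ratio -0.04). Cacna2d1 (ENSMUSG00000040118) was the most abundant of all 10 members, at 204 and 210 CPM (3328 and 4473 counts), and its interval ran from -1.40 to 7.91%. Cacna2d2 (ENSMUSG00000010066) was at 7.42 and 6.82 CPM (121 and 145 counts), with an interval from -28.3 to 18.1%. Cacna2d2 made up 3.51% (2.92 to 4.18%) and 3.14% (2.66 to 3.68%) of their joint counts, so the proportion of the pair did not differ beyond counting error.

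**Figure D3:**
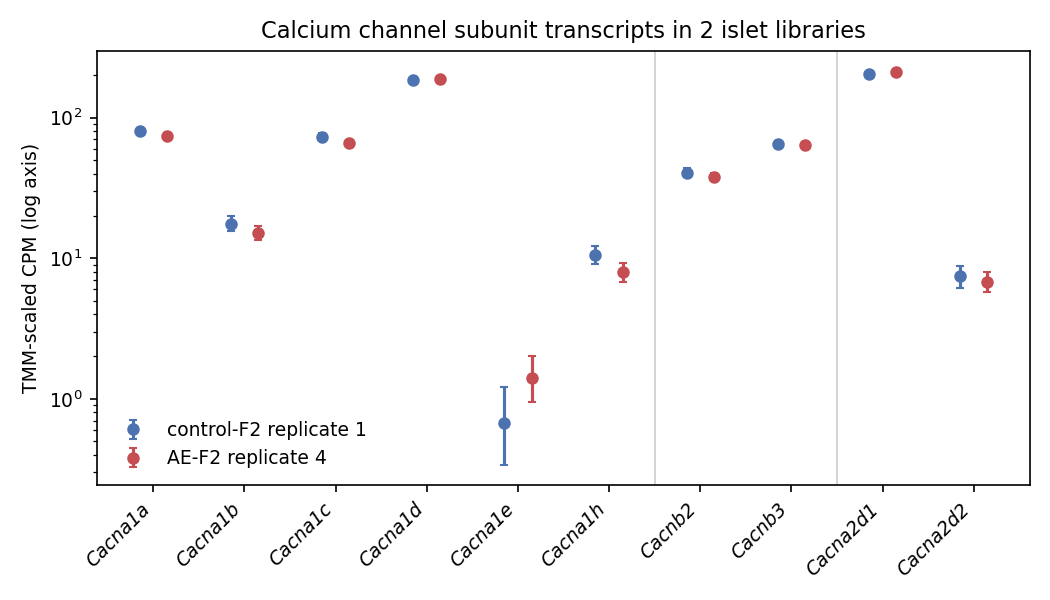
Level of each member in TMM-scaled CPM (log axis) in control-F2 replicate 1 (blue) and AE-F2 replicate 4 (red), with 95% Poisson counting intervals as bars and grey lines between α1, β and α2δ subunits. The levels span from 0.674 CPM for Cacna1e to 210 CPM for Cacna2d1, and for most genes the red and blue points lie at nearly the same height.

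Levels can be compared between genes only per length, here as CPM per kilobase of all annotated exons. In control-F2, Cacna2d1 (16.4, 95% Poisson interval 15.9 to 17.0), Cacnb3 (16.1, 15.2 to 17.2) and Cacna1d (14.7, 14.2 to 15.3) stood at the top, 1 gene from each subunit class. The intervals of Cacna2d1 and Cacnb3 overlapped, and those of Cacnb3 and Cacna1d met at their edges. Cacna1a followed at 7.01 (6.64 to 7.40), apart from its neighbours on both sides.

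Cacna1c (3.46, 3.27 to 3.66) and Cacnb2 (3.07, 2.84 to 3.31) came next in control-F2, with intervals that overlapped slightly. Below them were Cacna1b at 1.78 (1.58 to 1.99), Cacna1h at 1.08 (0.925 to 1.25) and Cacna2d2 at 0.934 (0.775 to 1.12), the last 2 not separated. Cacna1e, at 0.0267 CPM per kilobase, was last and far from the rest. In AE-F2 the order was the same except that Cacna1h (0.815) and Cacna2d2 (0.859) changed places, with overlapping intervals.

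The middle of this order depended on the length used, because Cacna1c has 22 annotated protein-coding transcripts and 21.191 kb of exon in all. With the median protein-coding transcript as the length, control-F2 levels were 19.2 CPM per kilobase for Cacnb2, 10.6 for Cacna1a and 10.3 for Cacna1c, so Cacnb2 came before Cacna1a and Cacna1c, which were close to each other. The 3 genes at the top and Cacna1e at the bottom kept their places under each of the 3 lengths.

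Within each class the same gene ranked first in both libraries. Of the α1 total per kilobase, Cacna1d took 51.8% in control-F2 and 54.8% in AE-F2, Cacna1a 24.7% and 23.6%, and Cacna1c 12.2% and 11.4%. With the median transcript as the length, Cacna1d took 46.1% and 48.1% and Cacna1c 20.5% and 19.0%. Cacnb3 took 69.1% and 71.9% of the β class (47.2% and 49.8% with the median transcript), and Cacna2d1 took 93.4% and 93.8% of the α2δ class. The order of the members within each class was the same in both libraries. Exons of Cacnb2 (7.32% of exon length), Cacna1d (4.67%), Cacna1a (3.81%), Cacna1h (1.62%) and Cacna2d2 (1.03%) overlap genes on the opposite strand, whose reads cannot be told apart where strand was not used in counting.

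**Figure D4:**
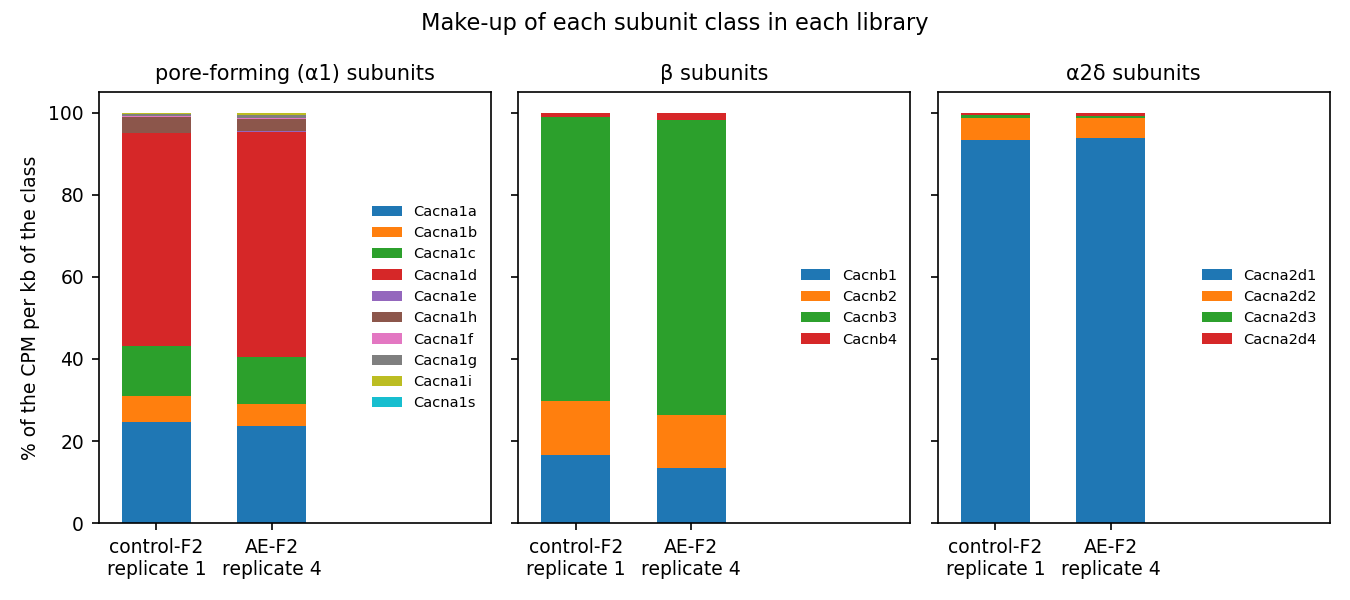
Share of each gene in the summed CPM per kilobase of its class (percent, bars stacked to 100) in each library, for all α1, β and α2δ genes. Cacna1d, Cacnb3 and Cacna2d1 fill the largest part of their bars in both libraries, and Cacna1d makes up 51.8% and 54.8% of the α1 bars.

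Of the 16 remaining subunit genes, Cacnb1 had the most counts. The list includes the γ (Cacng) genes, of which several act on glutamate receptors rather than on calcium channels. Of the 10 that passed the count minimum, 5 had ratios above equality and 5 below (median log2 ratio -0.02), Cacnb4 was called higher and Cacnb1 lower, beside the 13.4% of all genes in each direction.

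Cacnb1, the β subunit of the skeletal muscle channel, was at 17.6 and 13.3 CPM (287 and 282 counts), a log2 ratio of -0.41 (-0.65 to -0.17). With it the β class was 16.6% Cacnb1 and 13.1% Cacnb2 per kilobase in control-F2, and 13.3% and 13.1% in AE-F2. This order turned with the length used, since the median transcript as the length gave 17.2% Cacnb1 and 35.1% Cacnb2 in control-F2. Cacnb4, a β subunit of brain, was at 2.27 and 3.44 CPM (37 and 73 counts), a log2 ratio of 0.59 (0.01 to 1.21). The β subunit genes outside the members thus differed in opposite directions.

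Cacna1g (22 and 32 counts) and Cacna1i (18 and 33 counts), T-type pores like Cacna1h, did not differ beyond counting error, at 0.15 (-0.67 to 1.01) and 0.47 (-0.38 to 1.41). Cacna1f, the L-type pore of the retina, had 13 and 15 counts, and Cacna1s, the skeletal muscle pore, had 0 and 5, at least 1.28-fold higher against a floor of 3 counts in the control-F2 library, with a counting interval that included equality. Cacna2d3 (15 and 21 counts), Cacna2d4 (19 and 29) and Cacng7 (27 and 30) had intervals that included equality, as did Cacng4 (137 and 164) and Cacng2 (13 and 8, the only one past 2-fold). Cacng3 had 6 and 5 counts, and Cacng1, Cacng5, Cacng6 and Cacng8 had at most 3 in either library.

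Genes whose products act on the channel protein were described next to it. Of 18 regulators, 15 passed the minimum, 2 were called higher and 4 lower (median log2 ratio -0.03), beside 13.4% of all genes in each direction. Gem and Rem2, RGK GTPases that bind β subunits and hold back calcium current, were both called lower. Gem was at 18.7 and 11.7 CPM (305 and 249 counts), a log2 ratio of -0.67 (-0.92 to -0.43), and Rem2 at 7.60 and 5.79 CPM, -0.39 (-0.77 to -0.02). Calm2, which encodes the calcium sensor bound to the α1 subunit, was at 153 and 174 CPM (0.18, 0.11 to 0.26), and at 0.06 (-0.02 to 0.13) with GC and length trends removed. Prkacb, a catalytic subunit of the kinase that raises L-type current, was at 847 and 753 CPM (-0.17, -0.20 to -0.14), and Cabp1, a calcium sensor related to calmodulin, was not separated from equality (-0.22, -0.48 to 0.03). Stac2, an adaptor of L-type channels (11 and 39 counts), was also called higher, and is named after its value was seen.

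Of the 16 genes that set the membrane potential, 3 were called higher and 4 lower (median log2 ratio -0.02). The shares of all genes were 13.4% in each direction. Kcnma1, a potassium channel that the study also chose on these samples and reported as lower in AE-F2, was at 84.2 and 86.7 CPM (0.04, -0.06 to 0.14). Abcc8 and Kcnj11, the ATP-sensitive potassium channel, were at 1311 and 1217 CPM (-0.11, -0.13 to -0.08) and at 214 and 181 CPM (-0.24, -0.31 to -0.18). With GC and length trends removed, Abcc8 was at -0.03 (-0.06 to -0.004), and 4 of the 16 were called higher and 4 lower, a setting for which no share of all genes was counted. Kcnn3, a calcium-activated potassium channel, was at -0.49 (-0.65 to -0.32) and Trpm5, a calcium-activated cation channel, at -0.25 (-0.33 to -0.17). Scn9a, a sodium channel, was at 0.25 (0.12 to 0.39), and the potassium channel gene Kcnk16 at -0.01 (-0.05 to 0.03).

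The release site, where L-type channels sit close to docked granules, had 18 genes, of which 2 were called higher and 8 lower (median log2 ratio -0.10), beside 13.4% of all genes in each direction. Without Pclo, chosen by the study on these samples, 7 of 17 were called lower, with a median of -0.08. Rimbp2, which tethers calcium channels to the release machinery, was at 433 and 377 CPM (-0.20, -0.25 to -0.15). The scaffolds Erc2 (-0.28, -0.45 to -0.11), Bsn (-0.25, -0.40 to -0.10) and Pclo (-0.25, -0.32 to -0.18) and the priming factor Unc13a (-0.25, -0.35 to -0.16) were lower, and the fusion clamp Cplx2 was at 663 and 638 CPM (-0.05, -0.09 to -0.02). With GC and length trends removed, 6 of the 18 were called lower and 1 higher (median -0.06), and Bsn (-0.07, -0.22 to 0.08) and Cplx2 (-0.01, -0.04 to 0.03) were no longer called. The 13.4% holds with trends left in, and no share of all genes was counted without them.

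Of 17 genes of calcium pumps, exchangers, store release and store-operated entry, and mitochondrial uptake, 16 passed the minimum, none was called higher and 5 were called lower (median log2 ratio -0.02), beside 13.4% of all genes in each direction. The pumps of the endoplasmic reticulum, Atp2a2 (2387 and 2379 CPM, -0.01, -0.02 to 0.01) and Atp2a3 (1694 and 1659 CPM, -0.03, -0.05 to -0.01), were close to equality. The release channel Itpr2 was at -0.18 (-0.36 to -0.01), the exchanger Slc8a1 at -0.11 (-0.21 to -0.01) and the uniporter pore Mcu at -0.16 (-0.40 to 0.09). With GC and length trends removed, 5 of the 16 were called higher and 1 lower, Atp2a3 was at 0.04 (0.02 to 0.07), and the intervals of Itpr2 and Slc8a1 included equality. No share of all genes was counted for that setting.

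**Figure D5:**
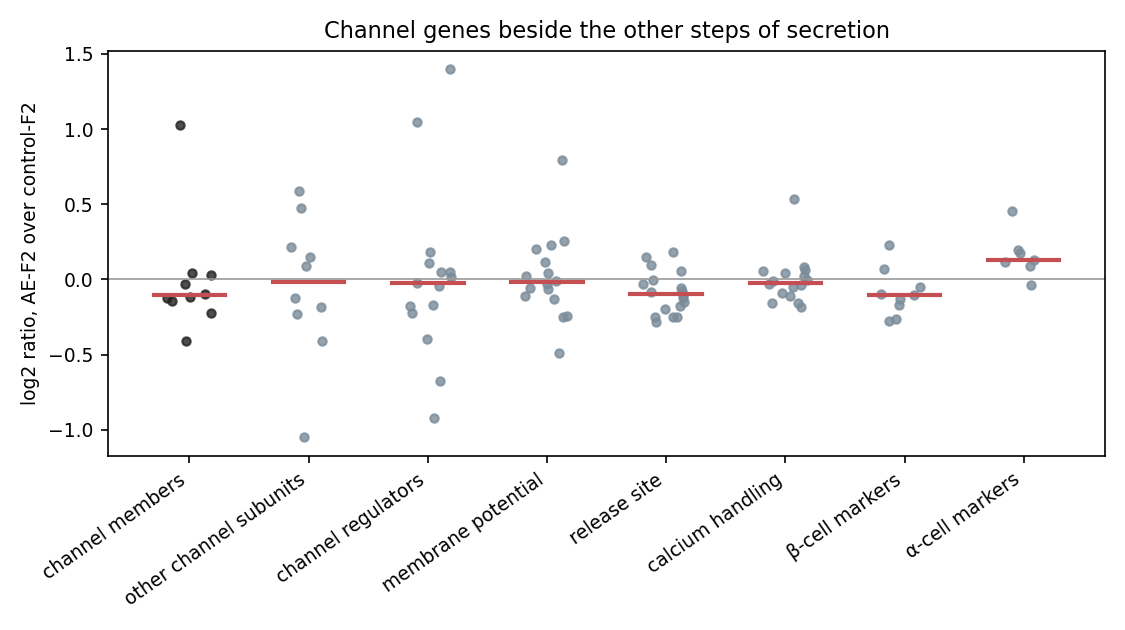
Log2 ratio, AE-F2 to control-F2, of each gene that passed the count minimum (points) in 8 lists, with the median of each list as a red bar and the members in black. Medians of the members (-0.11), the release site (-0.10) and the β-cell markers (-0.10) lie lowest with trends left in, against -0.02, -0.06 and -0.15 with GC and length trends removed, and that of the α-cell markers lies above 0 (0.13).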

How the data were processed

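Islets were isolated by collagenase digestion and hand picking, and poly(A) RNA was sequenced on an Illumina instrument with a kit that does not mark strand. The authors deposited unnormalised estimated counts per Ensembl gene, 1 table per sample, and 8.56% and 9.28% of the values were not whole. The submitters' processing notes name Bowtie2, RSEM and DESeq2, whereas the study's methods name HISAT2. The genome build and annotation of the counts were not given in the sources used here. GENCODE M21 (GRCm38) gave symbols for 21806 of 21899 IDs, exon lengths and GC content. The libraries held 16285888 and 21278513 counts.

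Counts were rounded and scaled by TMM in edgeR 4.0.16 (R 4.3.3). Log2 ratios (AE-F2 to control-F2) used a pseudocount of 0.5. Their intervals were converted from exact 95% binomial (Clopper-Pearson) limits on how a gene's counts divided between the libraries, calculated in SciPy 1.17.1. Intervals cover counting error only, and may be too narrow even for that, since reads without molecular identifiers include PCR copies. With 1 library per group analysed, no model test or P value was possible here, nor a repeat of the study's own comparison. Counts over all genes used those whose mean reached 10 counts. A count of 0 was set against a floor of 3 counts. The interval procedure was tested only on simulated Poisson counts, the error it assumes, so that test cannot show its coverage in these data.

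The members, pathway lists and markers were chosen with earlier results of these data known. Named genes were all members, every other channel subunit, and of each pathway list the 2 most abundant genes and the 4 with the largest absolute log2 ratio at a mean of at least 100 counts, a few of which are not reported here. Alternatives were other scalings (total counts, total without the 10 most abundant genes, upper quartile, DESeq2 1.42.0 size factors), a pseudocount of 5, unrounded counts, AE-F2 counts thinned to the control-F2 total, 99% intervals, other count minimums and lengths, and removal of loess trends (span 0.5) with GC content and transcript length. Promoter windows came from RefSeq (GRCm38.p6), and CG was counted on the printed strand, where it reads the same on the other.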

Additional observations from a re-analysis of the deposited data

How the results depend on the processing

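No paired analysis was possible because only 1 library per group was analysed, and their replicate numbers, 1 and 4, are not shared. For the same reason no replicate could be left out. All 10 members kept the side of equality of their ratio under DESeq2, total count, total without the 10 most abundant genes and upper quartile scaling, a pseudocount of 5, unrounded counts and thinning. The exceptions came with the trends. With GC and transcript length trends removed (13609 genes had both), Cacna1a was at 0.016 and Cacnb3 at 0.06, Cacna1d at 0.10, the median of the members at -0.015, 0 members were called lower and 2 higher. The length trend alone, added after seeing the data, left 1 called lower (Cacna1h) and 2 called higher, with Cacna1c at -0.10 (-0.21 to 0.01). With the GC trend alone, also added, Cacna1c was at -0.15 (-0.26 to -0.03) and Cacnb3 at 0.06. With 99% intervals 0 members were called lower and 0 higher. The share of all genes called was not counted at that level or with trends removed. The interval of Cacna1a included equality under upper quartile scaling, without the 10 most abundant genes and in the thinned counts, where Cacna1b was called lower. Over all settings Cacna1c ran from -0.15 to -0.05, Cacna1d from 0.01 to 0.10, Cacna1h from -0.51 to -0.26 and Cacna1e from 0.75 to 1.11. The Cacna1c share of L-type counts was 19.0% and 17.2% per kilobase of union exon, and, with lengths added after seeing the data, 20.7% and 18.7% with the longest and 30.8% and 28.3% with the median transcript. Values of the other lists and of pairs of members without the trends were also added after seeing the data. The cause of these shifts was not tested beyond the settings' own construction.

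Levels per kilobase in control-F2 rose with shorter lengths by construction. With the longest protein-coding transcript as the length they were 27.4 CPM per kilobase for Cacna2d1, 23.7 for Cacnb3, 21.4 for Cacna1d, 10.3 for Cacnb2, 10.1 for Cacna1a, 5.57 for Cacna1c and 1.28 for both Cacna1h and Cacna2d2. With the median transcript they were 52.6 for Cacna2d1, 25.8 for Cacnb3, 23.1 for Cacna1d, 19.2 for Cacnb2, 10.6 for Cacna1a, 10.3 for Cacna1c, 2.53 for Cacna1b, 1.36 for Cacna2d2, 1.29 for Cacna1h and 0.0693 for Cacna1e. Counts limit Cacna1e (11 and 30) and Cacna2d2 (121 and 145) most.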
